A study of Sus scrofa with 6 samples.

Results

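The mitochondrial ribosomal proteins build the ribosome that works inside mitochondria, and their mRNAs were examined here in mature pig oocytes, the egg cells. Members were the probe sets whose single gene symbol in the platform annotation begins with MRPL (large subunit) or MRPS (small subunit) followed by a digit. A probe set is the group of array probes designed against one transcript sequence. The rule found 58 genes of the 6765 with a symbol on the array, through 77 of the 23999 non-control probe sets, of which 51 probe sets (36 genes) belonged to the large and 26 (22 genes) to the small subunit. A further 6 probe sets carried several symbols, 5 naming MRPL55 and 1 naming MRPL22 in duplicate, and were left out.

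Each mitochondrion holds a small genome that encodes a few core subunits of the respiratory chain, and only the mitochondrial ribosome translates those messages. All of its proteins are encoded in the nucleus, made in the cytosol and imported. The oocyte supplies the mitochondria of the embryo, so the mRNAs for this machinery in a mature egg are part of the maternal store.

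The arrays compared oocytes of prepubertal gilts, which the labels call developmentally incompetent, with oocytes of adult sows, called competent, with 3 arrays in each group given as biological replicates. In both groups the eggs were drawn out of follicles measuring 2 to 6 mm and spent 42 to 44 h maturing in vitro. They were then stripped of cumulus cells with hyaluronidase and vortexing, and were checked for the first polar body. No strain, genotype or age in days is given for the pigs, and neither is the number of oocytes or animals behind an array, so the p-values reflect only how far these samples spread. With the number of oocytes unknown, fewer oocytes and less RNA per oocyte cannot be told apart.

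The prepubertal arrays were dimmer as deposited. Their 2% trimmed mean signals lay between 106 and 132, against 123 and 161 on the adult arrays. Over the 12000 probe sets bright enough to be tested the median log2 difference, prepubertal minus adult, was −0.20, and it was −0.01 after quantile normalization, which gives all arrays one distribution. Each difference below is therefore to be read against −0.20 as deposited, and quantile-normalized values stand beside it where the call or direction turns on them. Of 6 oocyte marker genes on the array 5 were tested, the growth factor genes GDF9 and BMP15 and the egg coat genes ZP2, ZP3 and ZP4. The groups of all 5 overlapped as deposited, at log2 differences of −0.58 for GDF9, −0.31 for ZP3, −0.05 for ZP4, 0.07 for ZP2 and 0.18 for BMP15. KIT was too dim on average to be tested. Its signals were 5.63, 6.63 and 2.6 on prepubertal and 22.95, 37.28 and 9.74 on adult arrays, without overlap. How often untested probe sets were separated over the whole array was not counted. The 6 summed to 4588 to 5523 signal units on prepubertal and 4876 to 5543 on adult arrays. The 12 cumulus and granulosa genes summed to 345 to 435 on prepubertal and 389 to 520 on adult arrays. Of their 20 probe sets 6 were tested and 0 passed in limma. An FST probe set was separated as lower (89.9 to 93.3 units on prepubertal and 105.5 to 153.5 on adult arrays), as 17.1% of all tested probe sets were. A dim LHCGR probe set was separated as higher, as 1.81% were, but its adult values alone were too dim on average to be tested. The other tested probe sets overlapped between the groups. Over the 6 arrays they ran from 90.3 to 135.3 units for INHBA, 23.9 to 61.65 for INHA and 9.10 to 42.5 for HSD3B1. FSHR, AMH, STAR, CYP11A1 and TNFAIP6 were near background on all 6 arrays. The theca and stroma genes summed to 76.9 to 107 on prepubertal and 93.8 to 141 on adult arrays. COL3A1 among them was separated as lower (−0.85 ± 0.30, limma adjusted p = 0.214), as 17.1% of all tested probe sets were. Its prepubertal values alone were too dim on average to be tested. The other tested probe sets, of DCN (0.10 ± 0.31) and COL1A2 (0.05 ± 0.24), had slightly higher prepubertal values and overlapped. The blood genes, mostly HBB, summed to 153 to 383 and 258 to 474, and the endothelium genes to 112 to 139 and 130 to 151, on prepubertal and adult arrays. The part of such cells in the results below was not tested.

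Across the mitochondrial ribosomal protein genes a single probe set passed the test. Of the 57 probe sets (47 genes) tested, 1 of MRPL3 passed a limma adjusted p of 0.05 as deposited, and it was lower in prepubertal oocytes. Over all tested probe sets 0.475% passed, 0.442% as lower and 0.0333% as higher. On the quantile scale 0 of the 57 passed in limma, against 0.117% of all (0.0917% as lower and 0.025% as higher). Without adjustment for multiple tests, 4 members were past 0.05 with lower and 0 with higher values as deposited, where 13.6% and 1.14% of all tested probe sets were. On the quantile scale that count was 3 with lower and 4 with higher values, where 5.79% and 5.06% of all were.

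A smaller share of members than of all tested probe sets had lower values on the prepubertal arrays. As deposited 32 of 57 did (56.1%), against 74.8% of all tested probe sets, and after quantile normalization 18 of 57 (31.6%), against 51.1%. The members' median was −0.06 (log2) on the deposited and 0.11 on the quantile scale, which placed it 0.14 and 0.12 above the median of all tested probe sets. With the brightest probe set standing for each gene the medians were −0.09 and 0.12. The quartiles of the members were −0.31 and 0.11 as deposited. Within 0.2 of no difference lay 31 of 57 members as deposited, against 4858 of all 12000 tested probe sets, and 25 of 57 on the quantile scale, against 6378 of 12000. Groups did not overlap for 9 members with lower and 2 with higher values as deposited (17.1% and 1.81% of all), and for 4 and 8 on the quantile scale (8.77% and 7.54% of all). Of the 2, an MRPS12 probe set was bright enough to be tested only through its prepubertal values. These counts and medians are descriptions of a list without a test.

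**Figure D1:**
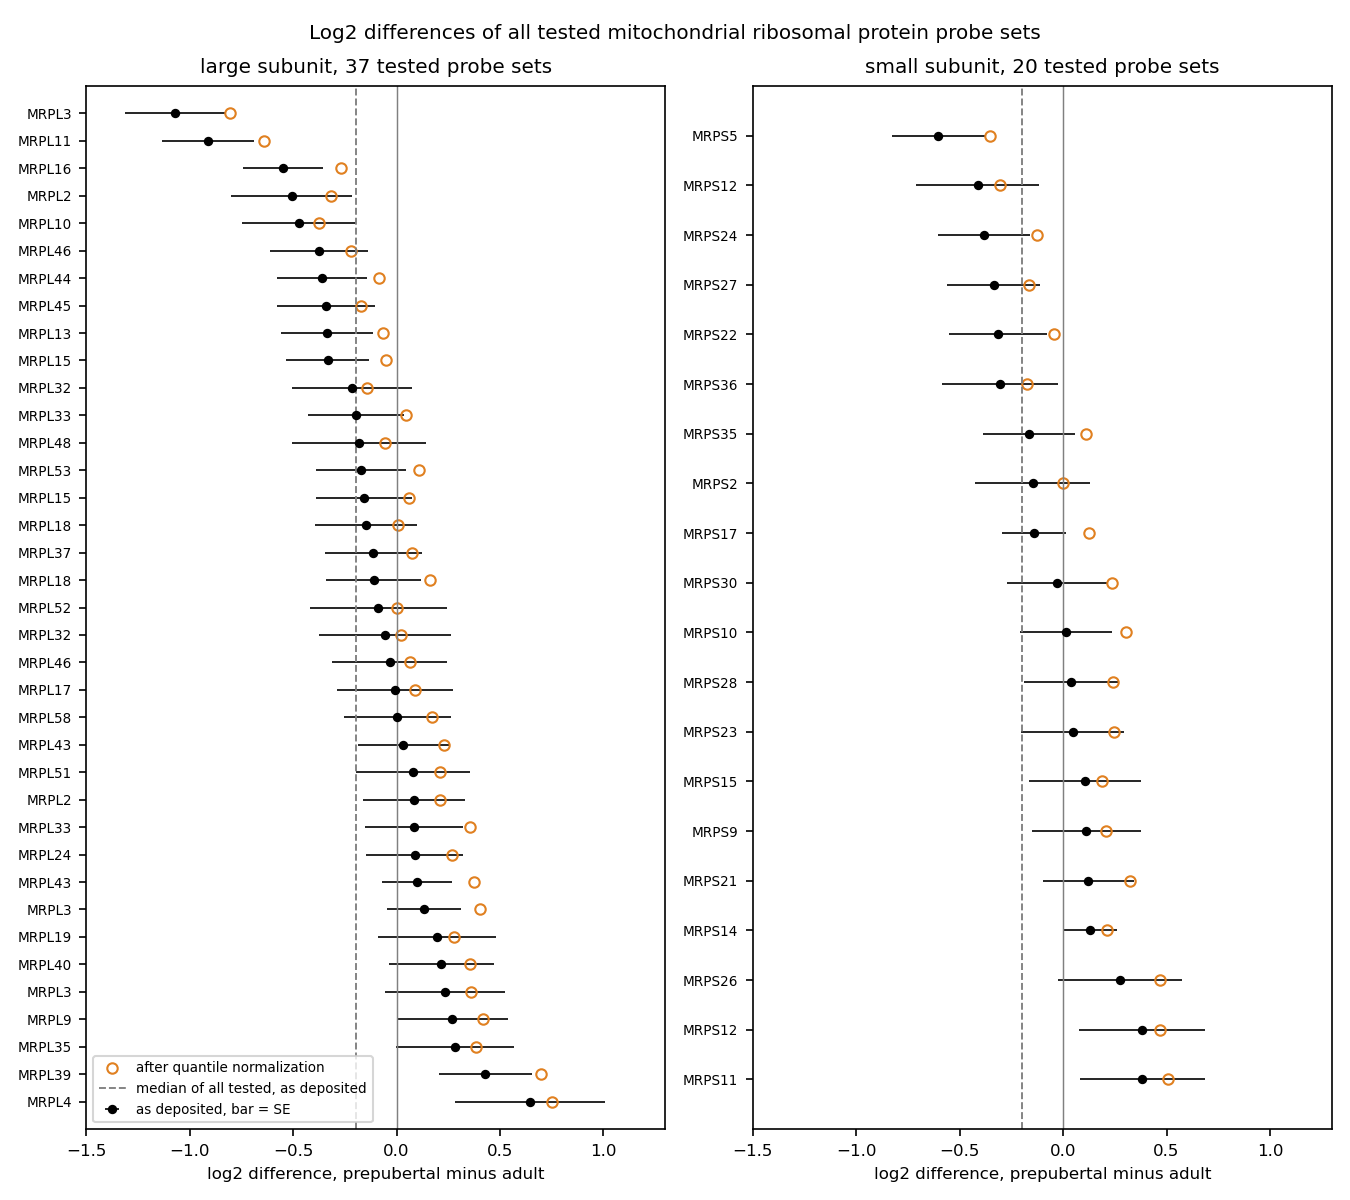
Log2 difference, prepubertal minus adult, of each of the 57 tested probe sets, with large subunit genes at left and small subunit genes at right, sorted from lowest to highest. Filled points with bars show the deposited scale with the standard error, open points show quantile-normalized values, and the dashed line marks the median of all tested probe sets at −0.20; most members sit to the right of it, and MRPL3 and MRPL11 lie lowest.

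The position of the family was next read on each array. Each probe set was expressed as its deviation from its own mean over the 6 arrays, and the median deviation of all tested probe sets was subtracted from that of the members. The members then stood at 0.06, 0.05 and 0.11 on prepubertal arrays 1, 2 and 3 and at −0.13, 0.05 and −0.05 on adult arrays 1, 2 and 3 (log2 scale). All 3 prepubertal arrays were above 0, but adult array 2 lay within their range, so the groups overlapped. The low value came from adult array 1, which was also the brightest array, with a trimmed mean of 161. The part of array brightness in this offset was not tested. Members varied a little less between replicates, with a median within-group SD of 0.24 over the 57 against 0.28 over all tested probe sets. They were also brighter, with a median log2 signal 0.10 to 0.33 above that of all tested probe sets on each array. The small subunit probe sets stood 0.23 to 0.59 above it, while the large subunit ones ran from −0.15 to 0.17 around it. The part of brightness in this smaller spread was not tested.

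**Figure D2:**
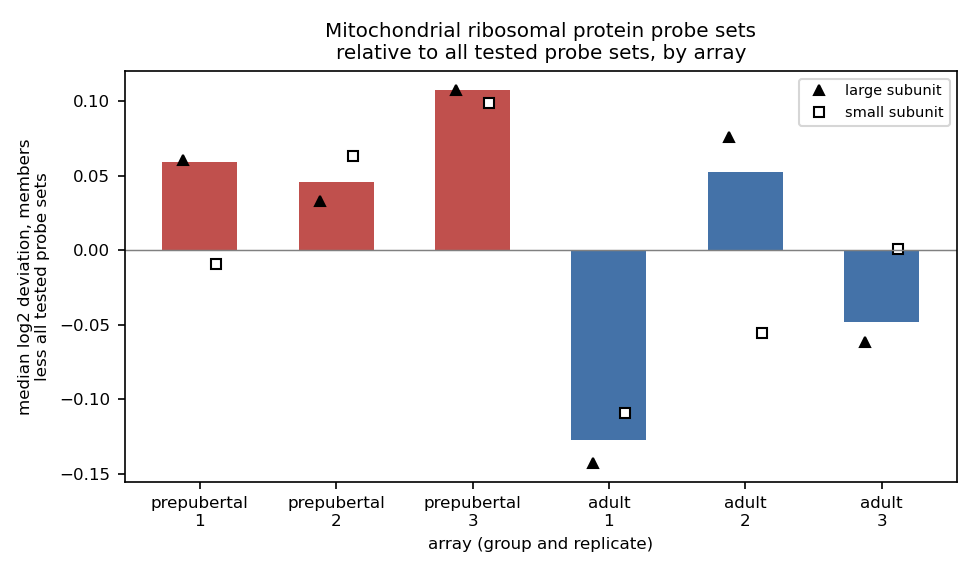
Median log2 deviation of the members on each array, less that of all tested probe sets (bars, red prepubertal and blue adult); triangles show large and squares small subunit probe sets. The prepubertal bars reach 0.05 to 0.11, and the adult bars spread from −0.13 to 0.05.

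MRPL3 is the counterpart of bacterial protein L3, which reaches toward the site of peptide bond formation. The annotation gives it 3 probe sets, which did not move alike. They are called here the strong, the middle and the weak one, by mean signal. Whether the middle one detects the same transcript as the others could not be checked without its target sequence. The middle probe set had signals of 364, 196 and 246 on the prepubertal arrays, against 516, 513 and 678 on the adult arrays. Every prepubertal value lay below every adult one, and 17.1% of all tested probe sets were separated in this direction. Prepubertal oocytes averaged 268 ± 86.7 and adult oocytes 569 ± 94.2 (SD, n = 3 each). On the log2 scale this probe set fell by 1.07 ± 0.24 (SE), or 2.10-fold, and its limma adjusted p was 0.0495. After quantile normalization the difference was −0.80 ± 0.18 and the adjusted p 0.111. With all 6 arrays 57 of all tested probe sets passed, and without prepubertal replicate 1 658 did. The call held in the latter fit (limma adjusted p = 0.000729). It was lost without prepubertal replicate 2 (0.216) or 3 (0.165) and without adult replicate 1 (0.198), 2 (0.141) or 3 (0.207), with the prepubertal value lower in all 6 of these fits.

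The strong MRPL3 probe set had signals of 3191, 2502 and 2857 on the prepubertal arrays, against 2898, 2012 and 2966 on the adult arrays. The groups overlapped as deposited, with a log2 difference of 0.13 ± 0.18 (SE, limma adjusted p = 0.762). After quantile normalization the prepubertal values were all above the adult ones, at a difference of 0.40 ± 0.11 (adjusted p = 0.193), where 7.54% of all probe sets were separated in that direction. The weak probe set stood at 93.5, 39.4 and 54.3 on prepubertal and 73.4, 52.3 and 27.1 on adult arrays, and its groups overlapped (0.23 ± 0.29, adjusted p = 0.734).

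Whether probe sets of a gene moved alike was tested within arrays, where the brightness of an array largely cancels for strong signals but, because of the added 16, less so for dim ones. For each gene with several tested probe sets, the log2 gap of each further probe set to the one of highest mean was compared between the groups with limma, over 1161 such pairs of 910 genes. The gap itself can differ with how well each probe set binds, so only its change between groups was tested. One pair passed an adjusted p of 0.05 (0.0861% of all pairs, and 0.0855% on the quantile scale), the middle against the strong probe set of MRPL3. Its gap was −3.08, −3.57 and −3.46 on the prepubertal arrays, against −2.45, −1.94 and −2.10 on the adult arrays. All prepubertal gaps were wider than all adult gaps. The change was −1.20 ± 0.21 on the log2 scale (SE, n = 3 arrays each), or 2.30-fold, with a limma adjusted p of 0.0368, and after quantile normalization it was −1.21 ± 0.21 (adjusted p = 0.0295). Without prepubertal replicate 1 the adjusted p was 0.00213 and 30 pairs passed. Without prepubertal replicate 2 or 3 it was 0.189 or 0.341, and without adult replicate 1, 2 or 3 it was 0.066, 0.327 or 0.141, and 0 pairs passed in each of these 5 fits. The change of the MRPL3 gap stayed between −1.35 and −1.09 throughout. The probe set pair was known from earlier results on these arrays to differ in direction.

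**Figure D3:**
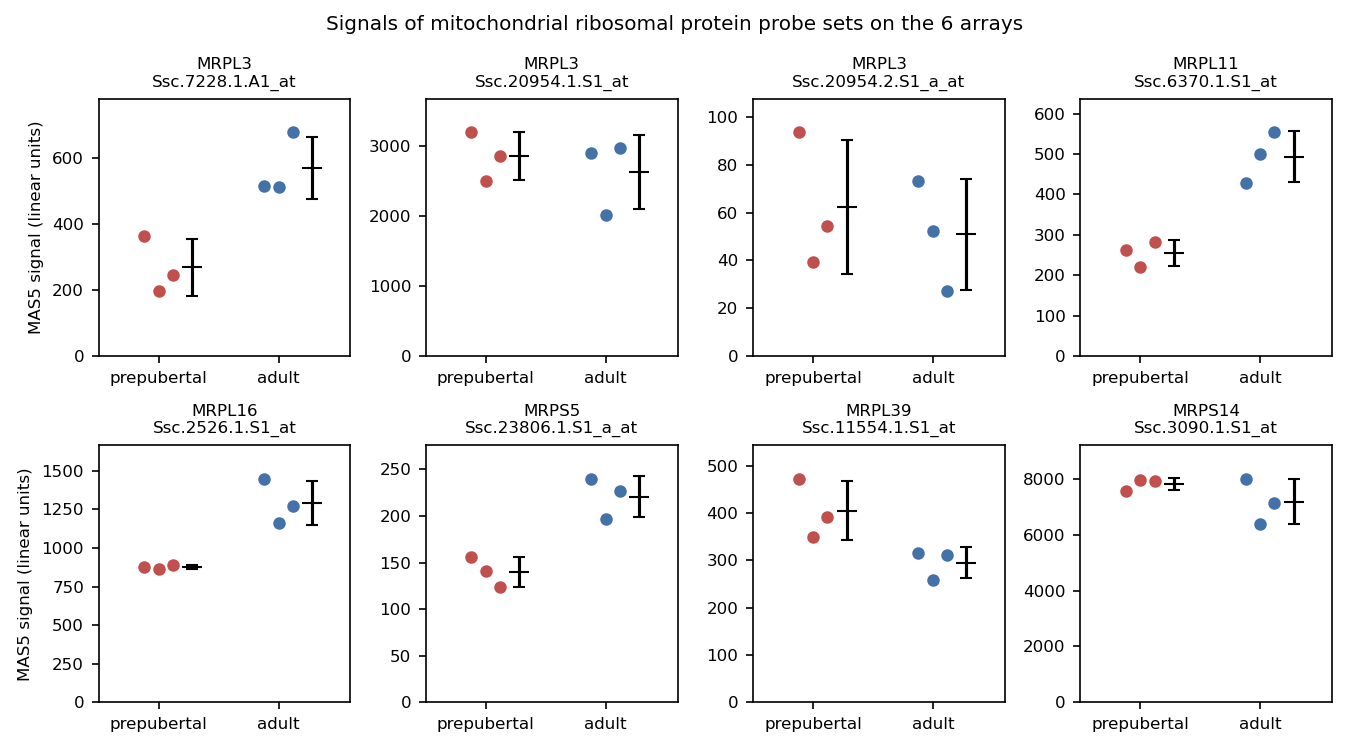
Signals (linear units, axis from 0) of 8 probe sets on the 3 prepubertal (red) and 3 adult (blue) arrays, with mean and SD beside the points. The top row opens with the middle, strong and weak probe sets of MRPL3. Of the 3 MRPL3 probe sets only the middle one, at 196 to 364 against 513 to 678, separates the groups; MRPL11, MRPL16 and MRPS5 are lower, and MRPL39 higher, on every prepubertal array.

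Among other large subunit genes, MRPL11 had the lowest values. This counterpart of bacterial L11 forms the base of the stalk where translation factors bind. Its signals were 262, 219 and 283 on prepubertal arrays, against 428, 500 and 554 on adult arrays, without overlap. The log2 difference was −0.91 ± 0.22 (SE), or 1.88-fold, on the deposited scale (limma adjusted p = 0.0713). It was −0.64 ± 0.18 on the quantile scale (adjusted p = 0.20). It passed the threshold without prepubertal replicate 1 (limma adjusted p = 0.0169), as 658 of all tested probe sets did in that fit.

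MRPL16, whose bacterial counterpart L16 lies near the incoming tRNA, had 876, 863 and 889 on prepubertal arrays, against 1447, 1165 and 1270 on adult arrays. The 3 prepubertal values were nearly equal and all lower, with a log2 difference of −0.55 ± 0.19 (limma adjusted p = 0.208), and −0.27 ± 0.13 after quantile normalization. MRPL10, which anchors the stalk proteins, was dim at 22.6, 24.9 and 11.5 on prepubertal arrays, against 34.7, 37.1 and 27.0 on adult arrays. It too did not overlap as deposited (−0.47 ± 0.28), but it did after quantile normalization.

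MRPL44, a protein with a ribonuclease III fold, had 665, 580 and 528 on prepubertal arrays, against 976, 668 and 672 on adult arrays, a log2 difference of −0.36 ± 0.22. For MRPL13 the signals were 419, 286 and 359 on prepubertal arrays, against 453.1, 453.5 and 433.5 on adult arrays (−0.34 ± 0.22). Neither pair of groups overlapped as deposited, and both did after quantile normalization, at −0.09 and −0.06. Of the large subunit probe sets 6 of 37 were thus separated as lower and 1 as higher, where 17.1% and 1.81% of all tested probe sets were. On the quantile scale 3 were separated as lower and 4 as higher, where 8.77% and 7.54% of all were.

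The one separated as higher was MRPL39, a large subunit protein without a bacterial counterpart. Its signals were 472, 350 and 392 on prepubertal arrays, against 317, 258 and 311 on adult arrays. The log2 difference was 0.43 ± 0.22 as deposited (1.35-fold, limma adjusted p = 0.375) and 0.70 ± 0.14 after quantile normalization (1.62-fold, adjusted p = 0.0627), the lowest adjusted p of any member on that scale. Without prepubertal replicate 1 it passed the threshold after quantile normalization, as 199 of all tested probe sets did, 108 of them with higher values.

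MRPL4, the counterpart of a bacterial protein that lines the tunnel through which the new chain leaves, had the highest value of all members, 0.65 ± 0.36. Its signals were 33.3, 47.7 and 9.95 on prepubertal arrays, against 5.01, 6.47 and 28.9 on adult arrays. The groups overlapped widely and the level was near background, and the value was 1.26 with 1 and 0.28 with 64 in place of 16 added before taking logs. MRPL35 had 18.9, 24.0 and 38.1 on prepubertal arrays, against 19.6, 19.8 and 16.8 on adult arrays (0.28 ± 0.28). For MRPL9 the signals were 52.0, 60.5 and 52.8 on prepubertal arrays, against 63.5, 51.2 and 22.2 on adult arrays (0.27 ± 0.27). All of these were dim and overlapped, and so did MRPL40, a protein of the central protuberance, at 50.6, 44.05 and 55.03 on prepubertal and 50.2, 50.1 and 25.3 on adult arrays (0.22 ± 0.25).

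In the small subunit, MRPS5 had the lowest values. The bacterial counterpart S5 sits where mRNA enters the ribosome. Its signals were 155, 141 and 123 on prepubertal arrays, against 240, 196 and 226 on adult arrays, without overlap on either scale. The log2 difference was −0.60 ± 0.23 (SE, 1.52-fold, limma adjusted p = 0.236) and −0.36 ± 0.16 after quantile normalization (adjusted p = 0.45).

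MRPS24, related to bacterial S3 at the same entry site, had 202, 198 and 229 on prepubertal arrays, against 281, 260 and 295 on adult arrays (−0.38 ± 0.22). For MRPS27, a protein with pentatricopeptide repeats, the signals were 57.0, 57.9 and 54.4 on prepubertal arrays, against 75.6, 65.9 and 85.9 on adult arrays (−0.34 ± 0.23). Both were separated as deposited and overlapped after quantile normalization, at −0.13 and −0.17.

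MRPS22 belongs to the proteins that only mitochondrial ribosomes have, and variants of the human gene are known in ovarian insufficiency. It had 336, 212 and 245 on prepubertal arrays, against 389, 278 and 321 on adult arrays. These groups overlapped, at −0.31 ± 0.24 (log2, limma adjusted p = 0.551) on the deposited and −0.05 ± 0.15 (adjusted p = 0.938) on the quantile scale. MRPS36, which has since been assigned to the oxoglutarate dehydrogenase complex, had 113, 37.6 and 49.5 on prepubertal arrays, against 77.7, 95.0 and 66.2 on adult arrays (−0.31 ± 0.28). The first prepubertal array was its highest value and the other two its lowest.

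The highest small subunit values belonged to dim probe sets. MRPS11, on the platform of the subunit, had 22.1, 38.1 and 25.2 on prepubertal arrays, against 22.1, 7.76 and 26.4 on adult arrays (0.38 ± 0.30). For MRPS26 the signals were 44.1, 102 and 76.3 on prepubertal arrays, against 99.6, 50.3 and 32.4 on adult arrays (0.28 ± 0.30). Both overlapped widely. MRPS14, a protein of the head of the subunit, gave a strong signal at 7568, 7952 and 7914 on prepubertal arrays, against 7988, 6393 and 7138 on adult arrays. The difference was 0.13 ± 0.13 on the deposited scale, with overlap, and 0.21 ± 0.09 on the quantile scale, where the groups no longer overlapped (limma adjusted p = 0.676 and 0.415). MRPS21 had 117, 97.6 and 118 on prepubertal arrays, against 94.9, 101 and 105 on adult arrays, with 0.12 ± 0.22 on the deposited and 0.32 ± 0.18 on the quantile scale. MRPS23 stood at 0.05 ± 0.25 and 0.25 ± 0.20. For both, the groups were separated as higher on the quantile scale and overlapped as deposited. MRPS9, whose bacterial counterpart also lies in the head, had 34.5, 29.5 and 32.0 on prepubertal arrays, against 20.6, 40.5 and 26.3 on adult arrays (0.11 ± 0.27).

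Large and small subunit genes were then set beside each other. As deposited 22 of 37 large subunit probe sets (59.5%) and 10 of 20 small subunit ones (50.0%) had lower values in prepubertal oocytes, against 74.8% of all tested probe sets. After quantile normalization these were 12 of 37 (32.4%) and 6 of 20 (30.0%), against 51.1%. The medians were −0.09 for the large and −0.01 for the small subunit on the deposited scale, and 0.08 for the large and 0.20 for the small subunit on the quantile scale. The large subunit median was thus 0.08 lower than that of the small subunit on the deposited scale, and this order turned without adult replicate 1 (large minus small 0.05) and without adult replicate 2 (0.08). By array the small subunit stood at −0.01, 0.06 and 0.10 relative to all tested probe sets in prepubertal and at −0.11, −0.06 and 0.00 in adult oocytes. The large subunit stood at 0.06, 0.03 and 0.11 and at −0.14, 0.08 and −0.06. For both subunits the prepubertal and adult ranges overlapped. The median of each subunit lay above that of all tested probe sets on both scales, and no order between the subunits held across arrays. MRPS30, which structures of the mammalian ribosome place in the large subunit, changed the comparison little when moved there (−0.09 in place of −0.08).

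Proteins inherited from the bacterial ancestor form the core of the mitochondrial ribosome, and proteins acquired later surround it. The 36 tested probe sets of members with a bacterial counterpart had a median log2 difference of −0.03 (0.14 after quantile normalization). The 19 of members without one had a median of −0.09 (0.11). Separated as lower were 7 of 36 and 2 of 19 as deposited, against 17.1% of all tested probe sets, and 4 of 36 and 0 of 19 on the quantile scale, against 8.77%. Separated as higher on the quantile scale were 5 of 36 and 3 of 19, against 7.54%. MRPL3, MRPL11, MRPL16 and MRPS5, the 4 probe sets below an unadjusted p of 0.05 as deposited, all belong to the first class, which also held most of the members. On the quantile scale that held for 5 of the 7 such probe sets, and MRPL39 and MRPL43 belong to the second. MRPL58, a rescue factor built into the large subunit, and MRPS36 were in neither class.

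Of the 58 genes, 14 had several probe sets and 9 had several that were tested, giving 10 pairs with the brightest. Opposite signs were seen in 4 of the 10 pairs as deposited, those of MRPL3, MRPS12, MRPL2 and MRPL33, against 34.5% of the 1161 pairs over all genes. On the quantile scale it was 6 of 10, against 47.2% of all pairs, with MRPL33 no longer among them and MRPL15, MRPL32 and MRPL46 added. The median size of the change in gap was 0.23 over the member pairs and 0.27 over all pairs. Only the MRPL3 pair passed the test, and the others had adjusted p from 0.432 upward.

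**Figure D4:**
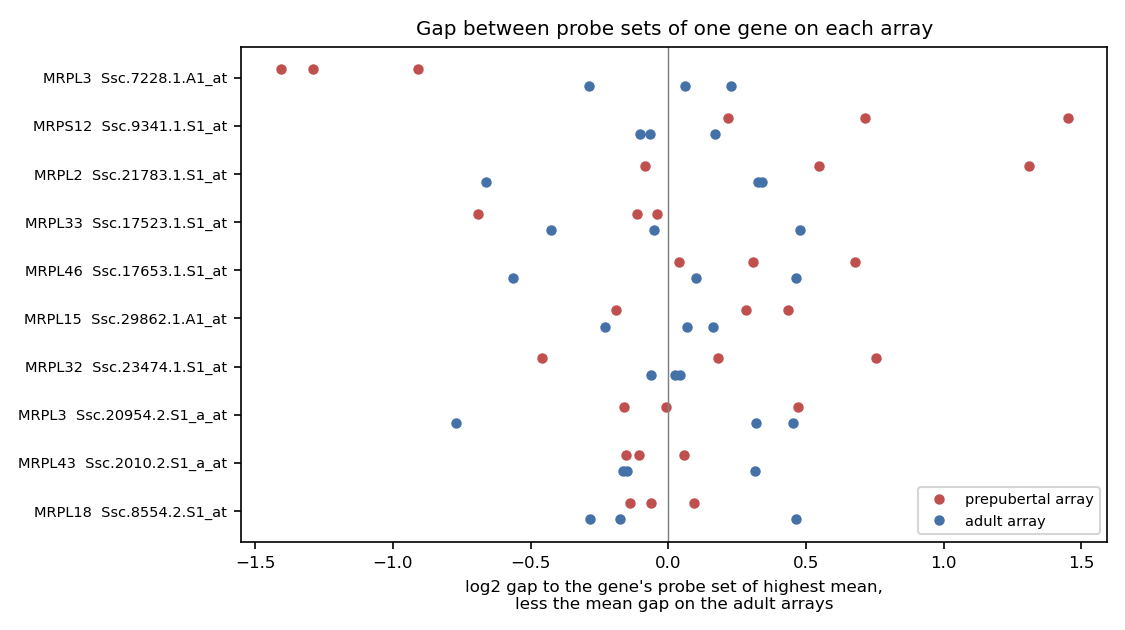
Log2 gap of each further tested probe set to the probe set of highest mean of the same gene, on each prepubertal (red) and adult (blue) array, after subtracting the mean gap on the adult arrays. In MRPL3 (top row) the 3 prepubertal arrays lie apart from the adult ones, at a change of −1.20, and in MRPL18 and MRPL43 (bottom rows) the groups overlap near 0.

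MRPS12, the counterpart of a bacterial protein at the decoding centre, had 63.5, 18.3 and 39.8 on prepubertal and 78.7, 35.4 and 57.9 on adult arrays with its brighter tested probe set (−0.41 ± 0.30). The dimmer one had 21.2, 21.8 and 21.0 on prepubertal and 19.6, 7.27 and 12.4 on adult arrays (0.38 ± 0.30). It was separated as higher, where 1.81% of all were, but it lay just above the filter on dim probe sets. The change in gap was 0.79 ± 0.39 (limma adjusted p = 0.432).

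For MRPL2, a core protein of the large subunit, the brighter probe set had 27.1, 61.4 and 55.5 on prepubertal and 59.5, 48.1 and 125 on adult arrays (−0.51 ± 0.29). The other had 53.1, 31.2 and 51.5 on prepubertal and 45.1, 36.5 and 41.7 on adult arrays (0.08 ± 0.25). Both overlapped. MRPL33 had a probe set at 334, 209 and 224 on prepubertal and 213, 228 and 267 on adult arrays (0.09 ± 0.24) and another at 147, 149 and 152 on prepubertal and 225, 161 and 143 on adult arrays (−0.20 ± 0.23), again with overlap. After quantile normalization both MRPL33 values were positive, at 0.35, where the groups no longer overlapped, and 0.04.

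The remaining genes had probe sets of one sign. MRPL43 gave a strong signal, 3688, 3006 and 3768 on prepubertal and 3582, 2621 and 3604 on adult arrays (0.10 ± 0.17, log2, as deposited). After quantile normalization it was 0.38 ± 0.10 and the groups were separated as higher (limma adjusted p = 0.193). Its dimmer probe set stood at 0.03 ± 0.22. The pair of MRPL18 lay at −0.11 and −0.15, that of MRPL15 at −0.33 and −0.16, that of MRPL32 at −0.22 and −0.06 and that of MRPL46, another protein of the central protuberance, at −0.38 and −0.03. The brighter MRPL46 probe set had 65.3, 44.3 and 57.3 on prepubertal and 62.7, 76.0 and 92.5 on adult arrays. All of these groups overlapped. The signs of both MRPL18 probe sets and of one each of MRPL15, MRPL32 and MRPL46 turned after quantile normalization.

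The other 17 tested probe sets had overlapping groups on both scales. Their genes were MRPL17, MRPL19, MRPL24, MRPL37, MRPL45, MRPL48, MRPL51, MRPL52, MRPL53 and MRPL58 in the large and MRPS2, MRPS10, MRPS15, MRPS17, MRPS28, MRPS30 and MRPS35 in the small subunit. MRPS17 was the strongest of these signals, with 3413, 3171 and 3611 on prepubertal and 4057, 3388 and 3822 on adult arrays. MRPL45, which tethers the ribosome to the inner membrane, averaged 45.8 in prepubertal and 62.7 in adult oocytes.

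A filter on dim probe sets removed 20 of the 77, whose signals ran from 0.487 to 44.5 units. A probe set was kept if its log2(signal + 16), averaged over the 6 arrays, reached 5.00, the median of the non-control probe sets. MRPS12 and MRPL4 had the dimmest tested probe sets, at 5.03 and 5.11, and MRPL50 and MRPL35 the brightest untested ones, at 4.99 and 4.97. The 11 genes left without a tested probe set were MRPL1, MRPL14, MRPL28, MRPL30, MRPL36, MRPL38, MRPL50, MRPL54, MRPS7, MRPS25 and MRPS34. MRPL50 had 8.27, 12.1 and 12.3 on prepubertal and 21.4, 18.7 and 24.5 on adult arrays, which did not overlap but lay near background. The dimmer MRPS2 probe set was also separated as lower. MRPL36, at 18.2, 15.7 and 18.4 on prepubertal and 2.63, 8.68 and 15.2 on adult arrays, and the dimmest MRPL46 probe set were separated as higher, and the other 16 overlapped. How often the groups of untested probe sets were separated over the whole array was not counted, so these counts have no comparison.

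Finally, 5 lists of genes that work with the mitochondrial ribosome were read for context. They held ribosomal proteins under other symbols, translation factors, assembly factors, mitochondrial tRNA synthetases and genes of mitochondrial DNA expression. Of 43 tested probe sets of 38 genes, 0 passed a limma adjusted p of 0.05 on either scale, against 0.475% of all as deposited and 0.117% after quantile normalization. Before adjustment 8 had lower and 0 higher values past 0.05 as deposited, where 13.6% and 1.14% of all tested probe sets did. Their median log2 difference was −0.21, against −0.20 for all tested probe sets and −0.06 for the mitochondrial ribosomal proteins, and after quantile normalization it was −0.02, with 22 lower and 21 higher values. The genes named next are those of smallest p in each list, and all of them had lower values as deposited.

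DAP3, a protein of the small subunit, had a log2 difference of −0.71 ± 0.32 (SE, limma adjusted p = 0.308) and PTCD3, another, −0.24 ± 0.24. The prepubertal values of DAP3 alone averaged just below the filter on dim probe sets. Among translation factors TUFM, the elongation factor that brings tRNA to the ribosome, stood at −0.62 ± 0.27, and OXA1L, which inserts new chains into the inner membrane, at −0.41 ± 0.24 (adjusted p = 0.305 and 0.428). The assembly factors FASTKD2 and RBFA stood at −0.58 ± 0.24 and −0.69 ± 0.29. For the tRNA synthetases WARS2 and IARS2 the values were −0.54 ± 0.23 and −0.43 ± 0.20, both separated as lower as deposited, as 17.1% of all tested probe sets were. On the quantile scale they were −0.37 and −0.14 (adjusted p = 0.508 and 0.689). HSD17B10, a subunit of the enzyme that trims mitochondrial tRNA precursors, had the lowest value of these lists, −0.83 ± 0.28 (adjusted p = 0.199, 0.347 after quantile normalization), and the helicase gene SUPV3L1 stood at −0.36 ± 0.21.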

How the data were processed

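Each of 6 Affymetrix porcine arrays held RNA of one oocyte sample. Poly(A) RNA was isolated on beads, amplified and labelled as cRNA (per the labels' protocols), so values depend on 3′ ends and on poly(A) tail length, which changes as oocytes mature. The deposited values are linear signal intensity values from MAS5, a tool named by the submitters' processing notes. Its version and scaling target were "not given in the sources used here", and the deposited arrays were not at one level. Every value column matched a sample (0 unmatched).

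From these, 124 control probe sets of 24123 were left out, 16 was added to each signal and log2 was taken, which understates folds of dim genes. Probe sets with a mean at or above the median were tested (12000 of 23999) in R 4.3.3 by limma 3.58.1, using lmFit and a trended eBayes, as prepubertal minus adult. The 2-sided p-values were adjusted by Benjamini-Hochberg across all of these probe sets, and 0.05 was the threshold. Every adjusted p is limma's. Quantile normalization used limma over the non-control probe sets. Probe set pairs of one gene were fitted the same way on within-array gaps. The fits were tested on simulated data, with planted changes larger than that of any member and no difference in level between arrays. Smaller changes and such level differences were not simulated. The number of arrays limits the precision.

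Symbols came from the platform annotation, where 10069 probe sets had 1 symbol, 198 several, and 13732 were not listed. For 76 of the 77 members the Entrez identifier was in RefSeq's table for Sscrofa11.1, with 0 symbols changed. The values carry no genome build, so no coordinates are given. Values of single probe sets were given for members past the threshold, the 6 lowest and 6 highest in each subunit and genes whose probe sets had opposite signs. Added after the values were seen were members without overlap, every tested probe set of genes with several, and MRPS17, MRPL45, MRPL50, MRPL36 and the marker genes. Of the other lists, the 2 genes of smallest p were named. Members, lists and tests were chosen with earlier results of these data known. Alternatives were other constants, filters, normalizations and variance models, the replicate number as a block and leaving out each array.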

Additional observations from a re-analysis of the deposited data

How the results depend on the processing

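The offset of the members above all tested probe sets kept its sign in every alternative run, at 0.10 to 0.17 over the fits that left out 1 array, and was smallest without the filter on dim probe sets (0.049). The large minus small subunit median was 0.081 without that filter, against −0.08 with it, and ran from −0.15 to 0.085 over the fits without 1 array. All counts of calls moved. Over all probe sets 57 passed as deposited, 14 after quantile normalization, 20 with a common trimmed mean, 15 with a constant of 1, 1 without the filter, 173 with an upper quartile filter, 1 without the intensity trend, and 3 to 658 without 1 array (0 to 199 after quantile normalization). Of the members 0 passed after quantile normalization (also with a constant of 1 or 64, chosen after seeing the data), with a common trimmed mean, with a constant of 1, without the filter or without the trend. With the upper quartile filter 2 passed, and without 1 array 0 to 2. Of the probe set pairs 0 passed with a constant of 1, without the filter or without the trend, 3 with the upper quartile filter, and 0 to 30 without 1 array (0 to 22 after quantile normalization, chosen after seeing the data). The MRPL3 gap changed by −1.25 with a constant of 1 (limma adjusted p = 0.159) and by −1.20 without the filter (0.0779) or without the trend (0.219), and by −1.35 to −1.09 without 1 array. The causes were not tested.

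The labels give both groups the same replicate numbers. The deviations of same-numbered arrays correlated at 0.03 to 0.11, not all over 0.1, so the numbers were not taken to pair the arrays. Each of the 6 arrays correlated best with its own number, a hint from the data and not the design. With the replicate block 918 probe sets, 4 members (MRPL3, MRPL11, MRPL16 and MRPS5, all with lower values) and 9 probe set pairs passed.

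Sign changes were counted over 40 tested member probe sets, not over the other tested ones listed above with overlapping groups on both scales. Of those, MRPL53 (from −0.17 to 0.11) and MRPS17 (from −0.14 to 0.12) also turned sign after quantile normalization. So did MRPL17 (to 0.089), MRPL37 (0.076), MRPL52 (0.0014), MRPS2 (0.0010), MRPS30 (0.24) and MRPS35 (0.11), all with negative values as deposited. For the 40, 541 values were recomputed over 14 alternatives, and 33 turned sign. After quantile normalization these were MRPL33 (0.045), MRPL15 (0.058), MRPL18 (0.16 and 0.0049), MRPL32 (0.022) and MRPL46 (0.063), and with a common trimmed mean the same probe sets, at 0.049, 0.077, 0.15, 0.062, 0.075 and 0.13. Without 1 array the values ran from −0.26 to 0.10 and −0.29 to 0.017 for MRPL18, −0.20 to 0.083 for MRPL46, −0.22 to 0.27 for MRPL32, −0.027 to 0.29 for MRPS9, −0.048 to 0.23 and −0.054 to 0.47 for the strong and weak MRPL3 probe sets, −0.050 to 0.20 and −0.0078 to 0.074 for MRPL43, −0.21 to 0.21 for MRPS23, −0.0092 to 0.33 for MRPL40, −0.043 to 0.49 for MRPL9, −0.0098 to 0.62 for MRPS26, −0.014 to 0.26 for MRPL2 and −0.11 to 0.21 for MRPL33.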
